A study of Mus musculus with 19 samples.

Results

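The genes described here are 9 writers, erasers and readers of DNA methylation: Dnmt1, Dnmt3a, Dnmt3b, Tet1, Tet2, Tet3, Tdg, Uhrf1 and Mbd2. They were chosen by name, as the rows of the deposited expression table whose mouse Ensembl ID belongs to one of these genes, and all 9 were found among 49671 genes. RNA was sequenced from brain homogenate enriched for microglia, the resident macrophages of the brain, with 1 library from each of 19 mice. HEM mice overexpress full-length human wild-type alpha-synuclein from a transgene on the X chromosome, driven by the murine Thy-1 promoter, which in brain is active mainly in neurons. WT mice are the controls, and both genotypes share the B6D2F1/J background. The 4 groups were HEM at 13 months of age (n = 8), WT at 13 months (n = 4), HEM at 3 months (n = 4) and WT at 3 months (n = 3). The labels give neither the sex of the mice nor their litters. DNA methylation itself was not analysed here, so that each value below is a transcript level.

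In vertebrates, methyl groups are placed on the cytosine of CpG, a cytosine followed by a guanine. DNMT1 copies the pattern onto the new strand after replication, and UHRF1 recognises DNA methylated on the old strand alone and brings DNMT1 to it. DNMT3A and DNMT3B set new methylation without a template. TET1, TET2 and TET3 oxidise methylcytosine stepwise, using 2-oxoglutarate and iron, and TDG cuts out the more oxidised bases so that base excision repair can restore cytosine. MBD2 binds methylated CpG and brings the NuRD chromatin remodelling complex to it.

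At 13 months, 3 of the 9 transcripts were higher in HEM than in WT and none was lower. Uhrf1 was 2.52-fold higher, Dnmt3b 1.50-fold and Tet2 1.49-fold. The other 6 did not pass the test. In this comparison 12.2% of 23973 tested genes were called, 4.87% as higher and 7.3% as lower. That is 2918 genes, against 1733, 1831 or 1707 without WT replicate 7, 8 or 9 at 13 months. A gene is called here where its p-value from limma-trend, adjusted by Benjamini-Hochberg over all tested genes, is under 0.05. Of the 9 genes, 8 had a positive log2 fold change, and their median was 0.31, against 0.034 over all tested genes. At 3 months limma-trend called none of the 9 between HEM and WT, and 0% of all genes; at an unadjusted p under 0.05 it was 0 of 9, against 3.85% of all genes, and DESeq2 called 6 genes in all, none of the 9. Since the libraries come from whole enriched homogenate, more cells that express a gene and more RNA per cell cannot be told apart.

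The 250 bases before the annotated transcription start are shown for the 3 called genes, to place them by the density of CpG, the site on which all of these proteins act. The sequences are from RefSeq (GRCm38.p6). The set of windows used here had 8 of the 9 genes and none for Mbd2. They run 5′ to 3′ on the strand of the gene, and capitals mark each CpG.
Tet2, chr3:133544391-133544640, minus strand: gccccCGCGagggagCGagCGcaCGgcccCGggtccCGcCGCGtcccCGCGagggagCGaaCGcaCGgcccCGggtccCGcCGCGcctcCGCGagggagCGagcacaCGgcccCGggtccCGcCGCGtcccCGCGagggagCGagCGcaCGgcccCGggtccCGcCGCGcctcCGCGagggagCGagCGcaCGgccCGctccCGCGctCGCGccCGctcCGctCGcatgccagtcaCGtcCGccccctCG
Dnmt3b, chr2:153649199-153649448, plus strand: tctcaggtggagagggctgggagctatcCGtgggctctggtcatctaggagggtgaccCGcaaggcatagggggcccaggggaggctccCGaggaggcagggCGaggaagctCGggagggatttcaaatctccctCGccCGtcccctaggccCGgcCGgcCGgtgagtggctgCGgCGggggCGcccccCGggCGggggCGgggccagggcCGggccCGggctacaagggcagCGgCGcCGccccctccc
Uhrf1, chr17:56303087-56303336, plus strand: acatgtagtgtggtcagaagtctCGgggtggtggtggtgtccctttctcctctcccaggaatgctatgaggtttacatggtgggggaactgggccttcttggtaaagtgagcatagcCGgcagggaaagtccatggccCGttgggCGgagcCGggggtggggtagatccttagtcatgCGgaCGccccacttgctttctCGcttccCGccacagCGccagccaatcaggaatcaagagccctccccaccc

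The Tet2 window held 51 CpGs, more than 99.9% of 32851 mouse promoter windows of the same length, whose median was 6. It lies inside the span of the gene, at a start downstream of the outermost one. The Dnmt3b window held 21 CpGs, more than 83.7% of all windows. The first Uhrf1 window held 10, more than 62.2%, and a second annotated start of Uhrf1, with its window at chr17:56304063-56304312, held 30.

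These windows were also searched on both strands for 4 short motifs. GCGGGAA, bound by E2F factors of the cell cycle, was found in 1 of the 13 windows of the 8 genes, the first of Uhrf1. It was in 3.82% of all windows. The Uhrf1 match lies 48 to 42 bases before the start, on the strand opposite to the gene, and is in capitals in Uhrf1: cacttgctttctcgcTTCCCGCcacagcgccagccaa. The AP-1 motif TGANTCA was in 0 of the 13, against 6.75% of all windows. TTTGAA, the CHR element of mitotic genes, was in 2 of the 13, the first Dnmt1 window and that of Dnmt3b, against 16.0% of all windows. The GC box GGGCGG was in 10 of the 13, against 32.7% of all windows, and windows of 1 gene can overlap. A match of letters is a description of the sequence and does not show that a factor binds there.

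Depth, counted as reads in genes, was 63.3 to 95.8 M per library for HEM at 13 months, 93.2 to 124.5 M for WT at 13 months, 74.7 to 112.9 M for HEM at 3 months and 83.0 to 106.8 M for WT at 3 months. All 12 microglia markers looked at, such as Cx3cr1 and Tmem119, were above 0 in each library, and 0 of 12 were called in any comparison. Transcripts of other cells were present too. The 7 choroid plexus markers summed to normalized counts between 1370700 and 4123500 per library, above the sums of the 12 microglia markers, between 432170 and 1205900. At 13 months the markers of neutrophils and their precursors were higher in HEM for 14 of 14 genes, with a median log2 fold change of 2.14. Their summed normalized counts were 71916 to 626070 in HEM and 44053 to 118520 in WT. Cell cycle genes were higher for 15 of 18, with a median of 1.68, and sums of 18159 to 69857 in HEM and 10696 to 17668 in WT. Immediate early genes, which neural and immune cells switch on within minutes of a stimulus, were higher for 12 of 12, with sums of 496270 to 1471000 in HEM and 98763 to 414610 in WT. Erythroid markers were higher for 4 of 9, monocyte markers for 5 of 7 and lymphoid markers for 5 of 11. Choroid plexus markers were lower for 7 of 7, with a median of -0.98. No marker of any of these lists was at 0 in a library, and none was called between HEM and WT at 3 months. Those marker values that stood beside a result are given with it again below.

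**Figure D1:**
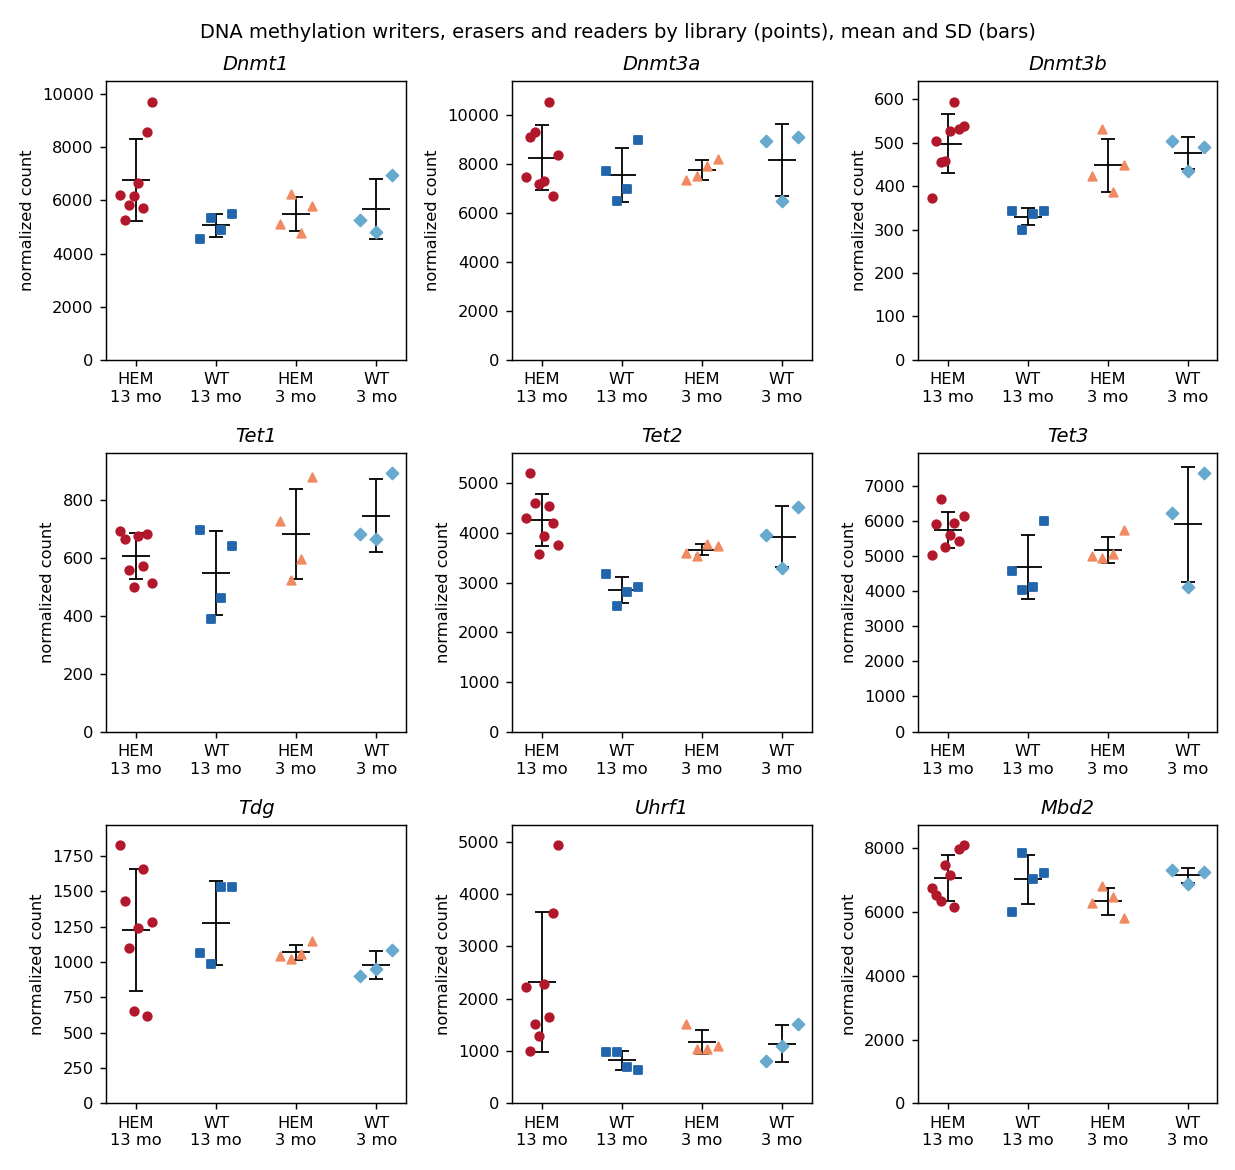
Normalized counts of the 9 genes (linear axis from 0) by group, HEM before WT at each age, with 1 point per library and bars for the mean and SD. For Dnmt3b and Tet2 the WT libraries at 13 months form the lowest group, and Uhrf1 spreads widely among the HEM libraries at 13 months, between 993 and 4930.

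Uhrf1 (ENSMUSG00000001228, mm10 chromosome 17, 56303321 to 56323486, plus strand), the partner that loads DNMT1, had the largest difference of the 9. Its normalized count, the count divided by the size factor of its library, had a lowest value of 993, a median of 1938 and a highest value of 4930 in HEM at 13 months. In WT at 13 months it was 979, 987, 686 and 636. The groups did not overlap, but the lowest HEM library was close to the highest WT library. The 3-month values of Uhrf1 were 1514, 1039, 1032 and 1106 in HEM, and 818, 1095 and 1518 in WT, and the groups overlapped. The means were 2315 ± 1335 (SD, n = 8) in HEM and 822 ± 187 (n = 4) in WT at 13 months. The log2 fold change was 1.33 ± 0.33 (SE, as for every log2 fold change below) at 13 months, with an adjusted p of 0.0116 from limma-trend, and 0.06 ± 0.41 at 3 months, with an adjusted p of 1. Between 13 and 3 months it was 0.81 ± 0.33 in HEM (adjusted p = 0.211, limma-trend) and -0.46 ± 0.41 in WT (adjusted p = 0.645). Without WT replicate 9 at 13 months the genotype difference was 1.22 and missed the threshold, with an adjusted p of 0.0517 from limma-trend.

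Dnmt1 (ENSMUSG00000004099, chromosome 9, 20907209 to 20959888, minus strand), the maintenance methyltransferase, had a lowest normalized count of 5254, a median of 6200.0 and a highest of 9712 in HEM at 13 months. In WT at 13 months the values were 4538, 5341, 4870.5 and 5493. Of the HEM libraries 7 of 8 lay above each WT library, and 1 lay between them. The values were 5112, 6221, 4786 and 5784 in HEM and 5254, 4812 and 6968 in WT at 3 months, with overlapping groups. The log2 fold change at 13 months was 0.39 ± 0.14, which did not pass the test (adjusted p = 0.0867, limma-trend). DESeq2 and limma voom with quality weights did call it, at 0.42 and 0.44, with adjusted p of 0.0491 and 0.0381.

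The HEM libraries that were highest for these maintenance genes at 13 months were the same pair for each. Replicates 12 and 13 had 3637 and 4930 normalized counts of Uhrf1 and 8558 and 9712 of Dnmt1. They also had the highest cell cycle level of all 19 libraries, with mean log2 values of 11.41 and 11.52. The same pair had the highest level of neutrophil and granulocyte precursor markers, at 14.57 and 14.29. Across the 19 libraries Uhrf1 followed the cell cycle level with a Pearson r of 0.98, and of 0.96 after group means were removed. For Dnmt1 the r was 0.77, and 0.62 after group means were removed. With the neutrophil and granulocyte precursor level, r was 0.88 for Uhrf1 and 0.70 for Dnmt1, and 0.78 and 0.50 after group means were removed. Libraries share cells, depth and scaling for all genes, so these r values describe the libraries and carry no test. With the cell cycle level as a covariate, the 13-month log2 fold change of Uhrf1 was -0.08 ± 0.16 and that of Dnmt1 was -0.002 ± 0.175. With the level of neutrophil, granulocyte precursor and erythroid markers as a covariate, they were 0.08 ± 0.34 for Uhrf1 and 0.07 ± 0.21 for Dnmt1.

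**Figure D2:**
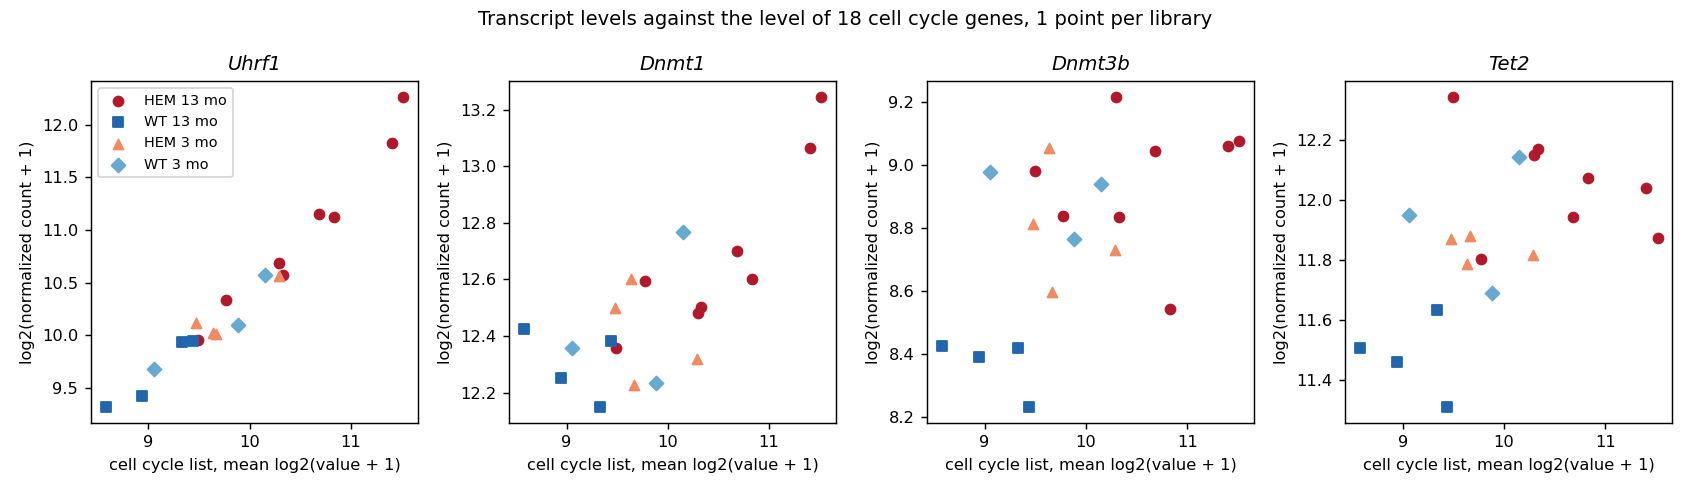
Log2(normalized count + 1) of Uhrf1, Dnmt1, Dnmt3b and Tet2 against the mean log2 level of 18 cell cycle genes, with 1 point per library and a colour and shape per group. Uhrf1 lies along a line (r = 0.98 over 19 libraries), while for Dnmt3b and Tet2 the WT libraries at 13 months lie below the others.

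Of the de novo methyltransferases, Dnmt3b (ENSMUSG00000027478, chromosome 2, 153649450 to 153687730, plus strand) changed at 13 months. Its normalized count had a lowest value of 372, a median of 516 and a highest value of 594 in HEM, against 342, 300, 335 and 343 in WT. Each HEM library lay above each WT library. Separation of that kind, with HEM higher, was seen at 13 months in 2.69% of tested genes. The means were 498 ± 67.9 (SD, n = 8) in HEM and 330 ± 20.4 (n = 4) in WT, and the log2 fold change was 0.58 ± 0.13, with an adjusted p of 0.00774 from limma-trend. At 3 months Dnmt3b was at 424, 531, 386 and 449 in HEM and at 504, 435 and 491 in WT. The WT libraries at 13 months were thus below every library of the other groups for this gene. Dnmt3c, a rodent copy of Dnmt3b, held a mean of 13.0 normalized counts, 2.90% of those of Dnmt3b. How many reads match both genes was not measured, so both values are uncertain.

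Dnmt3a (ENSMUSG00000020661, chromosome 12, 3806007 to 3914443, plus strand) had a lowest normalized count of 6697, a median of 7916 and a highest of 10532 in HEM at 13 months, against 7719, 6469, 6972 and 8975 in WT. The values were 7316, 7496, 7912 and 8210 in HEM and 8908, 6466.5 and 9086 in WT at 3 months. All 4 groups overlapped. Its log2 fold change was 0.13 ± 0.12 at 13 months (adjusted p = 0.602, limma-trend) and -0.06 ± 0.15 at 3 months (adjusted p = 1).

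Among the erasers, Tet2 (ENSMUSG00000040943, chromosome 3, 133463679 to 133545139, minus strand) had the smallest p of the 9 genes at 13 months. TET2 is the TET enzyme most often mutated in human blood cancers. Its normalized count had a lowest value of 3570, a median of 4256 and a highest value of 5197 in HEM, against 3173, 2537, 2814 and 2910.0 in WT. The groups did not overlap. The means were 4264 ± 524 (SD, n = 8) in HEM and 2858 ± 263 (n = 4) in WT, with a log2 fold change of 0.57 ± 0.10 and an adjusted p of 0.00225 from limma-trend. At 3 months the values were 3604, 3534, 3769 and 3742.5 in HEM and 3958, 3304 and 4518 in WT. As for Dnmt3b, each WT library at 13 months lay below all libraries of the other groups.

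Tet3 (ENSMUSG00000034832, chromosome 6, 83362373 to 83459084, minus strand) had a lowest value of 5033, a median of 5757 and a highest value of 6627 in HEM at 13 months, against 4575, 4031, 4125 and 5997 in WT. One WT library, replicate 9, lay among the HEM libraries. The values were 4989, 4945, 5044 and 5733 in HEM and 6234, 4116 and 7349 in WT at 3 months, with overlapping groups. At 13 months its log2 fold change was 0.31 ± 0.13 and did not pass the test (adjusted p = 0.134, limma-trend). Without WT replicate 9 it was 0.43, with an adjusted p of 0.0490 from limma-trend.

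Tet1 (ENSMUSG00000047146, chromosome 10, 62804570 to 62908996, minus strand) had a lowest value of 499, a median of 619 and a highest value of 692 in HEM at 13 months, against 697, 390.1, 461 and 642 in WT. It was at 727, 524, 597 and 878 in HEM and at 682, 664 and 892 in WT at 3 months. All 4 groups overlapped, and the log2 fold change at 13 months was 0.18 ± 0.17 (adjusted p = 0.604, limma-trend). Tdg (ENSMUSG00000034674, chromosome 10, 82629828 to 82650799, plus strand), the glycosylase, had a lowest value of 621, a median of 1263 and a highest value of 1825 in HEM at 13 months, against 1061, 983, 1527 and 1533 in WT. The 13-month HEM libraries of Tdg enclosed the range of all other groups, and its log2 fold change was -0.12 ± 0.24 (adjusted p = 0.837, limma-trend). At 3 months Tdg was at 1045, 1019, 1059 and 1147 in HEM and at 900, 948 and 1088 in WT. Exons of Glt8d2 on the other strand overlap 6.83% of the exon bases of Tdg, and the strand setting of the counting is not given in the sources used here.

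The reader Mbd2 (ENSMUSG00000024513, chromosome 18, 70568189 to 70626131, plus strand) had the smallest difference at 13 months. It had a lowest value of 6170, a median of 6971 and a highest value of 8094 in HEM, against 5988, 7840, 7052 and 7228 in WT, and the groups overlapped. This gave a log2 fold change of 0.01 ± 0.09 (adjusted p = 0.972, limma-trend). At 3 months it was at 6269, 6817, 6459 and 5808 in HEM and at 7310, 6887 and 7270 in WT. Each HEM library was below each WT library there, a separation that, with HEM lower, 2.78% of tested genes showed. At 3 months the log2 fold change was -0.18 ± 0.11 (adjusted p = 1, limma-trend).

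**Figure D3:**
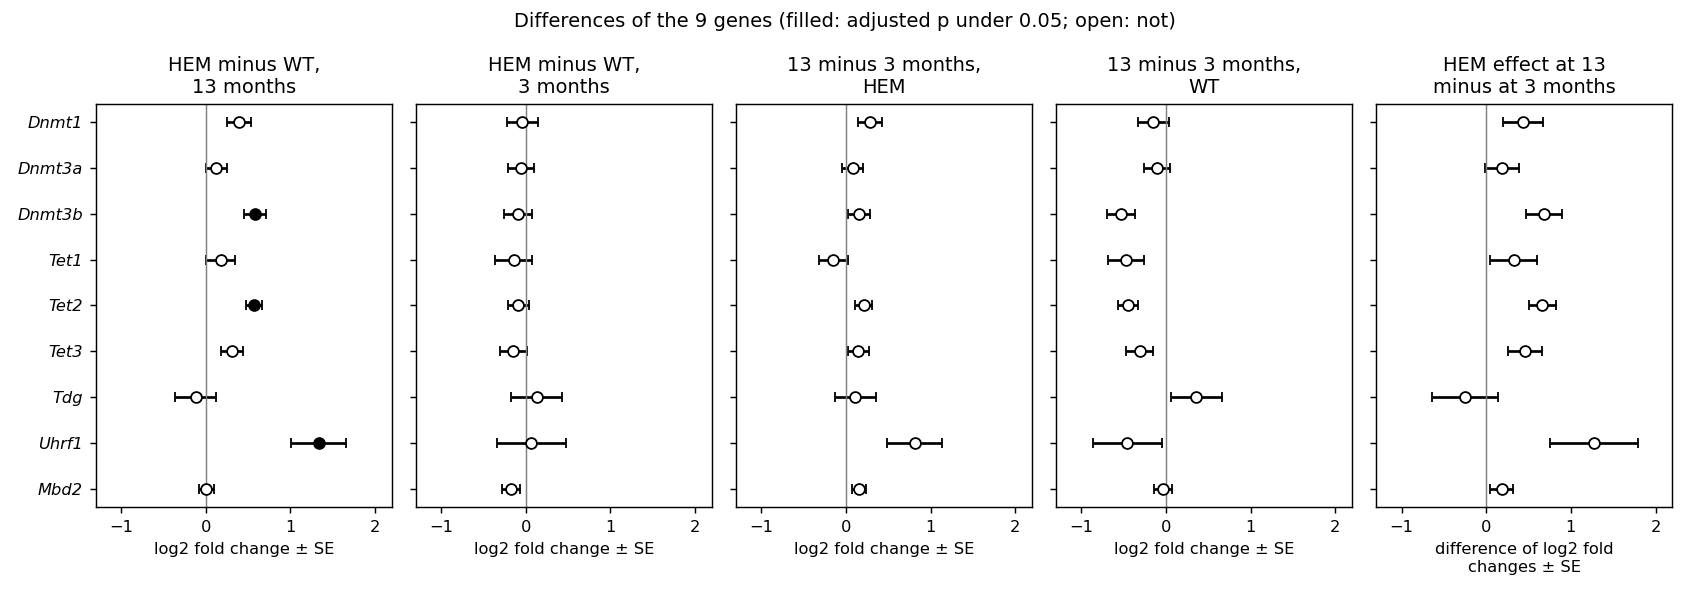
Log2 fold changes of the 9 genes with their standard errors in the 5 comparisons, from limma-trend over 23973 genes; filled points have an adjusted p under 0.05. Filled points stand at 13 months for Dnmt3b (0.58), Tet2 (0.57) and Uhrf1 (1.33), and no other comparison has one.

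Divided by the merged length of all annotated exons, the levels of the 9 genes differed widely. This is not the length of the expressed transcripts, and the order and shares below depend on it. Before the division Dnmt3a, with 16642 exon bases, had a higher mean count than Dnmt1, with 7377, at 7974 against 5962. Mbd2 was the highest, with a mean over the 19 libraries of 2153 normalized counts per kilobase, a level above that of 91.3% of tested genes. Dnmt1 followed with 808 per kilobase, Dnmt3a with 479, Uhrf1 with 370 and Tet3 with 325. Tet2 had 225 per kilobase, Tdg 217, Dnmt3b 87.8 and Tet1 40.9, which was above 29.9% of tested genes. Of the length-scaled counts of the 3 TET genes, Tet3 took 54.1% ± 3.1 in HEM at 13 months (SD, n = 8) and 57.6% ± 3.7 in WT (n = 4). Tet2 took 39.7% ± 2.6 in HEM and 35.2% ± 3.5 in WT, and Tet1 took 6.20% ± 0.91 in HEM and 7.23% ± 1.21 in WT. Of the 3 DNMT genes, Dnmt1 took 60.2% ± 7.0 in HEM and 57.1% ± 3.6 in WT, Dnmt3a 33.3% ± 6.5 in HEM and 37.5% ± 3.4 in WT, and Dnmt3b 6.49% ± 0.83 in HEM and 5.39% ± 0.46 in WT. The ranges of each of these shares overlapped between HEM and WT at 13 months, and the shares were not tested.

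By group means, Dnmt3b and Tet2 had the same order, HEM at 13 months, WT at 3 months, HEM at 3 months and WT at 13 months, from high to low. Only the last step, from HEM at 3 months to WT at 13 months, separated groups that did not overlap. Uhrf1 ran from HEM at 13 months through HEM and WT at 3 months to WT at 13 months, and each pair of neighbours overlapped. For the other 6 genes all neighbours in the order overlapped as well.

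Age was compared within each genotype. In HEM, limma-trend called none of the 9 genes between 13 and 3 months, where 1.62% of tested genes were called, and 2 of 9 had an unadjusted p under 0.05, against 16.6% of all genes. In WT, again none was called, where 0.709% of tested genes were, and 3 of 9 had an unadjusted p under 0.05, against 15.5%. Over all genes these are 388 calls in HEM and 170 in WT, which leaving out 1 library moved to between 62 and 648 in HEM and between 0 and 523 in WT, so the shares are loose. The lowest in HEM came without HEM replicate 1 at 3 months, and the 0 in WT came without WT replicate 7 at 13 months or WT replicate 1 or 5 at 3 months. edgeR called 103 in WT with TMM factors and 93 with RLE factors. DESeq2 and voom called 0 of the 9 in HEM. Dnmt3b was at -0.53 ± 0.17 (adjusted p = 0.114, limma-trend) and Tet2 at -0.45 ± 0.12 (adjusted p = 0.0788) in WT at 13 against 3 months. These 2 genes were also those whose WT groups did not overlap, a separation that, with 13 months lower, 6.46% of tested genes showed. DESeq2 called them, with adjusted p of 0.0143 for Dnmt3b and 0.0172 for Tet2, and so did limma voom with quality weights, with 0.0317 for Dnmt3b and 0.0187 for Tet2. The WT libraries at 13 months enter this comparison and the genotype comparison at 13 months alike, so the values of the 2 comparisons are not independent.

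The difference of the HEM effects between 13 and 3 months was tested directly. By limma-trend no gene of the 9 was called, and 0% of all genes was, while 4 of 9 and 14.8% of all tested genes had an unadjusted p under 0.05. The difference was 0.66 ± 0.16 for Tet2 (adjusted p = 0.0909, limma-trend), 0.68 ± 0.21 for Dnmt3b (adjusted p = 0.141) and 1.27 ± 0.52 for Uhrf1 (adjusted p = 0.253). DESeq2 called it for Tet2 and Dnmt3b, with adjusted p of 0.00671 and 0.0159, as did limma voom with quality weights, with 0.0244 and 0.0266. Without HEM replicate 7 at 13 months, limma-trend called Tet2 as well, at 0.70 with an adjusted p of 0.0363, and without WT replicate 6 at 13 months, at 0.71 with an adjusted p of 0.0451.

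Dnmt3b and Tet2 kept the size of their 13-month difference when marker levels entered the model, but neither passed the test. With the cell cycle level as a covariate the log2 fold change was 0.60 ± 0.20 for Dnmt3b (adjusted p = 0.168, limma-trend) and 0.68 ± 0.14 for Tet2 (adjusted p = 0.0958). With the neutrophil, granulocyte precursor and erythroid level it was 0.53 ± 0.21 for Dnmt3b (adjusted p = 0.377) and 0.65 ± 0.15 for Tet2 (adjusted p = 0.309). Of all tested genes, 1 was called with the cell cycle level in the model and 0 with the other. Immediate early genes were lowest in WT at 13 months too, with mean log2 levels (± SD) of 15.29 ± 0.56 in HEM and 13.27 ± 1.02 in WT at 13 months. The 3-month levels were 15.59 ± 0.36 in HEM and 15.49 ± 0.43 in WT. The immediate early level had an r of 0.74 with Dnmt3b and 0.68 with Tet2 over the 19 libraries, and of 0.34 and 0.23 after group means were removed. Other lists shared this low WT level at 13 months. They were the neutrophil (10.95), erythroid (12.02), monocyte (10.56), lymphoid (10.20), cell cycle (9.07), and endothelial and mural (13.79) markers. The erythroid level had an r of 0.68 with Dnmt3b and 0.67 with Tet2, and of 0.23 and 0.11 after group means were removed. The part of the immediate early and choroid plexus transcripts in these differences was not tested.

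**Figure D4:**
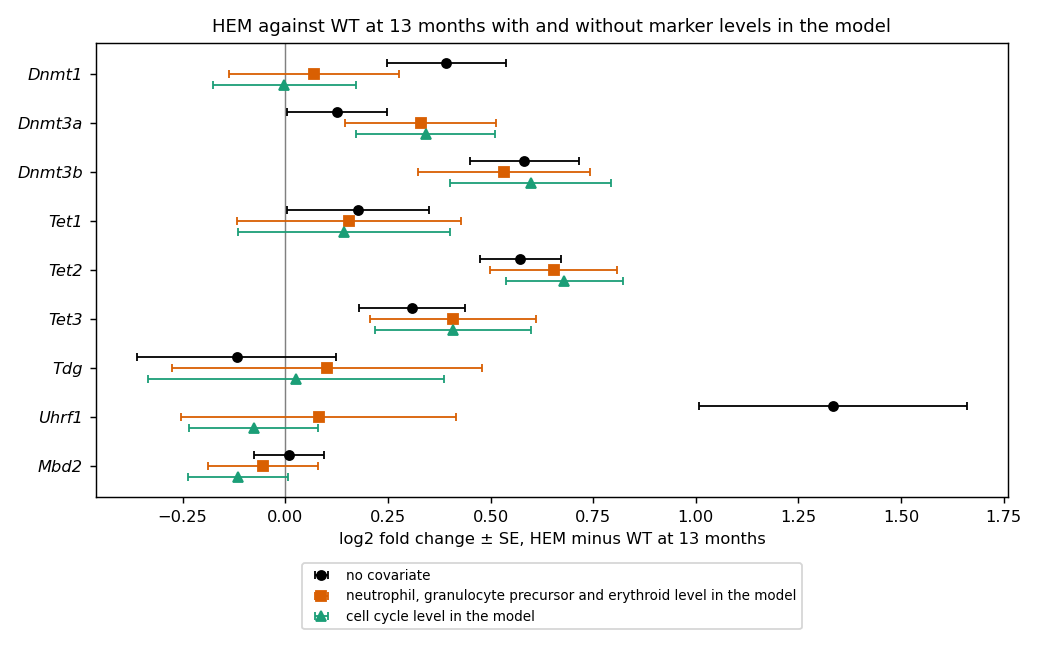
Log2 fold change with its standard error, HEM minus WT at 13 months, for the 9 genes with no covariate (circles), with the level of neutrophil, granulocyte precursor and erythroid markers (squares) and with the cell cycle level (triangles) in the model. Uhrf1 moves to 0.08 and -0.08 and Dnmt1 to 0.07 and -0.002, while Tet2 stays at 0.65 and 0.68 and Dnmt3b at 0.53 and 0.60.

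For each gene, the transcripts most like it over the 19 libraries were taken from 17263 tested genes with an ordinary symbol, by Pearson r of the log2 values. Uhrf1 was most like Top2a, the topoisomerase of dividing cells, with r = 0.98, and then Dtl and Lmnb1. Dnmt1 was most like Ctcf, the insulator protein (r = 0.90), and then Bach2 and Nsd2. Tet3 was most like the histone methyltransferase gene Kmt2b (r = 0.94), and then Nsd1 and Rbm33. Tet2 was most like Chd8, a chromatin remodeller (r = 0.89), and then Rbm26 and Lmbr1l. Dnmt3b was most like Rassf1 (r = 0.85, and 0.58 after group means were removed), and then Casp2 and Irf1. Dnmt3a was most like Eml4 (r = 0.90), and then Tbkbp1 and Lmln. The nearest r was lower for Tdg, with 0.81 for Zfp433, followed by Rps15a-ps4 and Klk10. Mbd2 had 0.78 with Aff3, followed by Ybx1 and Stk24, and Tet1 had 0.75 with Lrig2, followed by Lpp and Lrrc49. Among the 9 themselves the closest pairs were Dnmt1 with Uhrf1 (r = 0.84, and 0.76 after group means were removed) and Dnmt3a with Tet3 (0.79, and 0.80). Dnmt3b and Tet2 had an r of 0.73, and of 0.15 after group means were removed.

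Genes related to these enzymes by function or family were taken as 6 further lists, with 69 tested genes. At 13 months 8 were called higher in HEM, Wt1 with very few counts among them, 6 were called lower, and the median log2 fold change was 0.05. Over all tested genes 4.87% were higher and 7.3% lower, so 6 lower genes of 69 is near the background. Where the cell cycle level, or that of neutrophil, granulocyte precursor and erythroid markers, was a covariate, limma-trend called none of the 69. It called none of them between HEM and WT at 3 months, between the ages in HEM or WT, or for the difference of the effects. At an unadjusted p under 0.05 there were 1, 11, 12 and 17 of the 69 in these comparisons, in this order. Over all tested genes the shares were 3.85%, 16.6%, 15.5% and 14.8%. The 1 at 3 months was Dppa3, known for keeping UHRF1 from chromatin in oocytes and named after its values were seen. It had 10.5 to 16.9 normalized counts in HEM and 0 to 3.73 in WT (unadjusted p = 0.000201, adjusted p = 1, limma-trend). All of these HEM libraries met the filter value of 10. No WT library of either age did, with a highest value of 9.03 at 13 months, and the median of HEM at 13 months was 6.1. Dppa3 thus entered the test mainly through the group where it is high, so this p is no support for a difference.

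Cofactors of maintenance and de novo methylation were higher for 5 of 12, against 4.87% of all tested genes, and 0 were lower. Hells, a remodeller that opens packed chromatin for methylation, had a lowest normalized count of 574, a median of 767 and a highest of 1261 in HEM, against a range of 302 to 426 in WT, with no overlap. Its log2 fold change was 1.10 ± 0.20 (adjusted p = 0.00267, limma-trend). Cdca7l, a relative of the HELLS partner CDCA7, was at 1.01 ± 0.29 (adjusted p = 0.0299), and Ezh2, the methyltransferase of Polycomb, at 0.86 ± 0.22 (adjusted p = 0.0160). Dnmt3l, the inactive partner of DNMT3A and DNMT3B, was at 1.38 ± 0.40 (adjusted p = 0.0308) from low counts, 8.25 to 31.8 in HEM and 4.04 to 12.1 in WT. Lig1, the ligase of replication, was at 0.61 ± 0.18 (adjusted p = 0.0361), and it is named after its values were seen. With the cell cycle level as a covariate the log2 fold changes were 0.41 for Hells, 0.40 for Cdca7l, -0.01 for Ezh2, 1.46 for Dnmt3l and -0.12 for Lig1, and none of the 5 passed the test (adjusted p of 0.286 to 0.990, limma-trend).

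Base excision repair genes, a list that holds other glycosylases as well as the steps after TDG, were higher for 2 of 14, and 0 were lower. Over all tested genes 4.87% were higher. Neil3, a glycosylase of dividing cells, was between 237 and 869 in HEM and between 76.8 and 164 in WT, with a log2 fold change of 1.88 ± 0.35 (adjusted p = 0.00284, limma-trend). Neil1, a glycosylase that works with TDG, was at 0.43 ± 0.14 (adjusted p = 0.0424). With the cell cycle level as a covariate they were at 0.44 for Neil3 (adjusted p = 0.387, limma-trend) and 0.15 for Neil1 (adjusted p = 0.805), and neither passed.

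Of the partners and cosubstrate enzymes of the TET proteins, 2 of 10 were called lower and 1, Wt1, was called higher. Idh2, which makes 2-oxoglutarate in mitochondria, had a lowest value of 8706, a median of 11235 and a highest of 14296 in HEM, against a range of 15012 to 19349 in WT. The log2 fold change was -0.61 ± 0.11 for Idh2 (adjusted p = 0.00311, limma-trend) and -0.50 ± 0.11 for Idh1, its cytosolic counterpart (adjusted p = 0.00579). With the cell cycle level as a covariate the 13-month values were -0.62 for Idh2 (adjusted p = 0.120, limma-trend) and -0.45 for Idh1 (adjusted p = 0.212), and neither passed. Wt1, a factor that recruits TET2, had an adjusted p of 0.0437 from limma-trend, at counts too low for a fold change. It had 0 to 28.0 normalized counts in HEM at 13 months (median 4.9) and 0 to 1.40 in WT. At 3 months Wt1 had 4.06 to 21.1 in HEM and 3.98 to 14.8 in WT. No WT library at 13 months met the filter value of 10. Wt1 thus entered the test only through groups where it is higher, so this p is no support for a difference.

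Genes of methyl donor supply were lower for 3 of 13, and 0 were higher, against 7.3% lower and 4.87% higher over all tested genes. Ahcyl2, a protein related to the enzyme that breaks down S-adenosylhomocysteine, was at -0.87 ± 0.20 (adjusted p = 0.00806, limma-trend). Mthfd1, an enzyme of folate metabolism, was at -0.58 ± 0.12 (adjusted p = 0.00554), and Mat2b, a regulatory subunit of methionine adenosyltransferase, at -0.28 ± 0.08 (adjusted p = 0.0324). Choroid plexus markers, lower for 7 of 7 in the same comparison with summed counts of 1370700 to 2685300 in HEM and 3425400 to 4123500 in WT, stood beside the lower genes of these lists, and their part was not tested. In the list of other methyl-CpG readers and their relatives, 1 of 8 genes was lower, against 7.3% of all tested genes, and 0 were higher. That gene was Mbd3, the NuRD subunit closest to MBD2, at -0.42 ± 0.07 (adjusted p = 0.00237, limma-trend), with 10213 to 12616 normalized counts in HEM and 13121 to 16886 in WT. Binding of MBD3 to methylated CpG was not examined here, so this is not a result about a reader. Of the 12 further NuRD genes none was called.

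**Figure D5:**
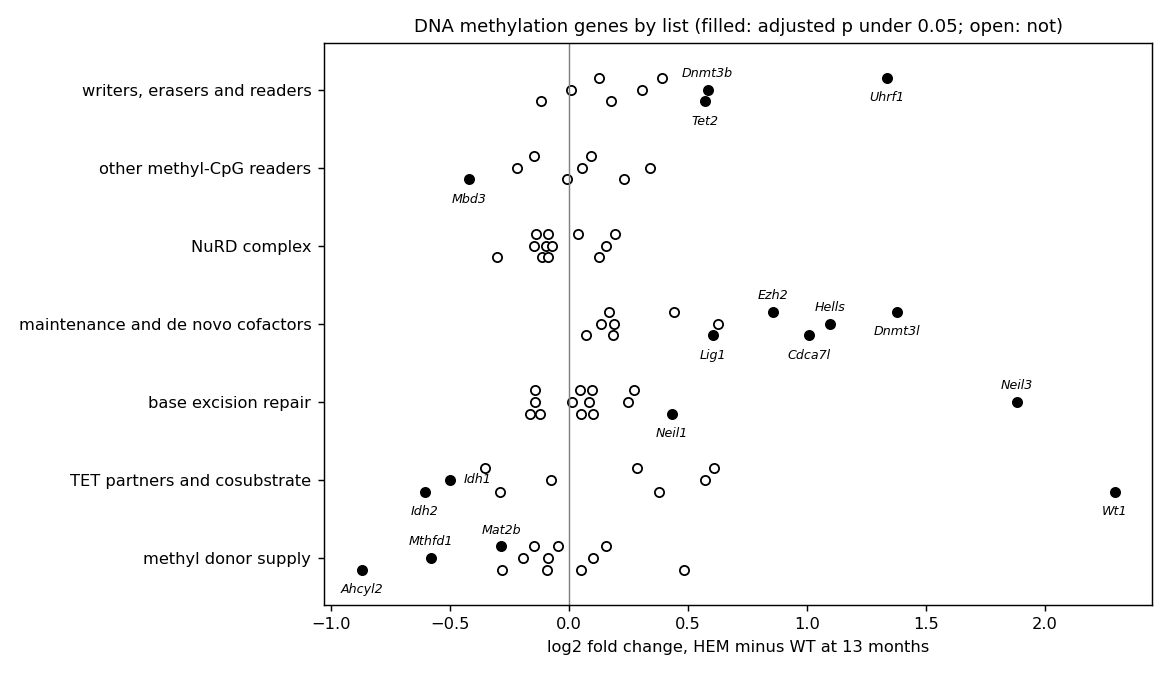
Log2 fold change, HEM minus WT at 13 months, of each tested gene of the 9 and of 6 further lists; 1 point per gene, filled where the adjusted p is under 0.05. Cofactors of maintenance and de novo methylation lie to the right, with 5 of 12 called, while called genes of methyl donor supply (3 of 13) lie to the left. Over all tested genes 4.87% were called higher and 7.3% lower.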

How the data were processed

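RNA-seq libraries of 19 mice were used. The labels' protocols name an AllPrep kit for RNA and the NEBNext Ultra II RNA kit for the libraries. The submitters' processing notes list Trimmomatic, HISAT2, featureCounts, DESeq2 and mm10; their versions, roles and strand setting are not given in the sources used here. The deposited signal is a gene count scaled by the authors with a single size factor for each library. The values themselves show this, since 100% of them were whole multiples of a step of their library within 0.01. All 19 columns of the joint table match 1 library each, in the right group, and libraries are named by the number in their title.

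A gene was tested where 3 or more libraries had a value of 10 or more, which gave 23973 genes, the 9 included. limma-trend (limma 3.58.1, R 4.3.3, robust) was fitted to log2(value + 1), with the 4 groups in 1 model. Two-sided p-values were adjusted over all tested genes by Benjamini-Hochberg. On this log2(value + 1) scale the change of genes with low values is understated. edgeR 4.0.16 on the whole reads recovered in this way called 2898 genes at 13 months, against 2918 here. DESeq2 1.42.0, limma voom, other pseudocounts, filters and scalings, marker levels as covariates and left-out libraries were alternatives. The fit was also run on simulated data with independent genes, which cannot show how it handles shifts in cell content shared by many genes. Symbols, positions and exon lengths are from GENCODE M21.

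The 9 genes, the other lists and the markers were chosen with earlier results of these data known. Named were the 9 genes, up to 4 called genes with the smallest p per further list at 13 months (2 in other comparisons), and the 3 genes most like each of the 9. One gene of the further lists is not reported here. The level of a marker list is the mean log2 value of its genes. No label says what the replicate numbers stand for, and the main fit did not pair libraries by them. The deviations of same-numbered libraries from their group means correlated between -0.07 and 0.17 over 11 pairs. This does not settle whether same-numbered libraries share an origin.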

Additional observations from a re-analysis of the deposited data

Results flagged for a closer look

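Of 27 combinations of a gene and a group of 4 to 10 libraries, 2 held a library far from the others of its group, where chance gives about 1 in 20. Tet3 in HEM at 3 months was at 5732.6 normalized counts in replicate 7, with the other 3 libraries between 4945 and 5044. Uhrf1 in HEM at 3 months was at 1514 normalized counts in replicate 1, with the other 3 between 1032 and 1106. Replicate 1 also had the highest cell cycle level of the HEM libraries at 3 months, a mean log2 value of 10.29, with 9.47 to 9.66 in the other 3.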

How the results depend on the processing

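At 13 months limma-trend called 3 of the 9 genes, and so did each fit that left out 1 library (3 to 3), although without WT replicate 9 Tet3 took the place of Uhrf1. In HEM against WT at 3 months and in either age comparison these fits called 0 to 0, and for the difference of the effects 0 to 1. DESeq2 and limma voom called 4 at 13 months, 2 between the ages in WT and 2 for the difference. Dnmt3b, Tet2 and Uhrf1 were called at 13 months under edgeR, DESeq2, voom, TMM scaling, the other pseudocounts and filters, the compared groups alone, and without HEM replicates 1 and 11 at 13 months and replicate 3 at 3 months together. Over all genes, DESeq2 called 6 at 3 months and 938 for the difference, and voom 0 and 794; between the ages, DESeq2 called 1308 in HEM and 1217 in WT, and voom 1466 and 1255. Without a filter on low values the age counts were 280 in HEM and 79 in WT. Leaving out 1 library gave 1707 to 3287 genes at 13 months and, for the difference, 0 to 313, with 313 without HEM replicate 7 and 280 without WT replicate 6 at 13 months. By age in HEM it gave 648, 243 and 209 without HEM replicates 3, 12 and 13 at 13 months, and 62, 118 and 163 without HEM replicates 1, 4 and 7 at 3 months. By age in WT it gave 523, 102 and 4 without WT replicates 6, 8 and 9 and 468 without HEM replicate 7 at 13 months, and 1 without WT replicate 3, 80 without HEM replicate 1 and 102 without HEM replicate 4 at 3 months.

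With the neutrophil, granulocyte precursor and erythroid level as a covariate, 0 of 9 were called at 13 months. Signs turned for Tdg (0.10) and Mbd2 (-0.054) at 13 months, Dnmt1 (0.060) at 3 months, Uhrf1 (-0.051) by age in HEM, Dnmt1 (0.050), Uhrf1 (0.33) and Mbd2 (0.0069) by age in WT, and Tdg (0.041) and Uhrf1 (-0.38) for the difference. With the cell cycle level, 0 were called at 13 months, and signs turned for Dnmt1 (-0.0020), Tdg (0.026), Uhrf1 (-0.077) and Mbd2 (-0.12) at 13 months, Uhrf1 (-0.0032) at 3 months, Dnmt1 (0.016), Uhrf1 (0.14) and Mbd2 (0.020) by age in WT, and Uhrf1 (-0.074) for the difference. With the replicate number as a block, whose meaning no label gives, 0 of 9 and 0 of all genes were called at 13 months. Signs turned there for Mbd2 at 13 months (-0.10) and by age in WT (0.052). At 3 months they turned for Dnmt1 (0.12), Dnmt3a (0.0058), Tet1 (0.028) and Tet2 (0.061). Among HEM libraries at 13 months with shared numbers, 2 of 4 HEM libraries at 3 months correlated best with their own number. Without the 3 libraries together Tdg turned by age in HEM (-0.11).

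Leaving out 1 library turned signs at 13 months for Mbd2 (-0.066 to 0.063) and Tdg (-0.23 to 0.0090). At 3 months it did for Dnmt1 (-0.15 to 0.12), Dnmt3a (-0.22 to 0.026), Tet2 (-0.21 to 0.018), Tet3 (-0.39 to 0.029) and Uhrf1 (-0.16 to 0.29), and by age in WT for Dnmt1 (-0.26 to 0.0052) and Mbd2 (-0.087 to 0.042). The cause of these changes was not tested. Differences at 3 months lay within 1 standard error for 8 of the 9 genes and were not detectable with 4 and 3 libraries.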
